A study of Mus musculus with 2 samples.

Results

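S100a4, S100a6, S100a10, S100a11, Lgals1, Anxa1, Anxa2, Lmna, Capg and Crip1 are 10 of the 17238 genes counted in single innate lymphoid cells (ILCs) of the mouse gut. They were chosen by name from earlier results of these same libraries, as calcium-binding, membrane-binding, lectin, lamin and actin-linked genes that tended to be higher in the colon. Their gap between the tissues over all cells is therefore a description and supports nothing further. The data were read for how the 10 genes varied from cell to cell, and for whether the gap between the tissues was also found in cells with a transcript of Gata3, Ccr6, Ncr1, Klrd1 or Cd3e.

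There were 2 libraries, 1 per tissue (small intestine and colon). Both held sorted IL7ra+ ILC from C57BL/6 mice aged 8 weeks that were labelled fed, with 8 mice pooled per library, and both were made with the 10x Genomics Chromium 3′ v2 kit. A transcript is counted by its unique molecular identifier (UMI). With 1 library per tissue there was no replicate, so no test was possible and the difference between tissues cannot be told apart from one between libraries. All intervals are 95% intervals that cover counting error only.

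The cells were those of the authors' own table, 5490 small intestine cells with 15080081 UMIs and 7549 colon cells with 22332691 UMIs. The median cell had 2579 UMIs (small intestine) or 2600 UMIs (colon), so depth per cell was close. The 2 libraries shared 60 cell barcodes, where chance gives 56.2. Free RNA made up an estimated 5.36% of the UMIs in small intestine cells and 8.25% in colon cells. Markers of other cell types were few. Not every listed marker was in the authors' table: 6 of 8 myeloid, 4 of 6 stromal, 3 of 5 mast cell and 1 of 4 neutrophil markers were. The myeloid markers summed to 1.59 UMIs per 1000000 (CPM) for the small intestine against 3.76 CPM for the colon, and the stromal markers to 0.133 and 0.313 CPM. The 1 neutrophil marker had 0 UMIs and 1 UMI. The mast cell markers summed to 3.38 and 1.48 CPM. The 7 epithelial markers (26.6 and 13.7 CPM), the 4 endothelial markers (59.2 and 28.7 CPM) and the B lineage markers without antibody genes (43.4 and 18.8 CPM) were lower in the colon. Of the 4 endothelial markers, 3 had 0 UMIs in the small intestine, so that value came from the remaining marker. Cells with Cd3e, a CD3 subunit of the T cell receptor complex, made up 7.81% of small intestine and 18.3% of colon cells of this ILC sort.

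The proteins of this set meet at the plasma membrane, the cortical actin network and the nuclear envelope. S100 proteins are small calcium sensors that bind and regulate other proteins, and annexins bind membrane phospholipids when calcium rises. S100a10 forms a complex with Anxa2, and S100a11 binds Anxa1. Lgals1 (galectin-1) is a lectin that binds cell-surface sugars, Lmna encodes the A-type lamins of the nuclear lamina, Capg caps the ends of actin filaments, and Crip1 is a small LIM-domain protein. In lymphocytes, several of these genes are known as marks of effector and memory states.

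In the mm10 genome with the GENCODE vM21 annotation, 5 of the 10 genes lay on chromosome 3. S100a4 (ENSMUSG00000001020, chr3:90603771-90606045) and S100a6 (ENSMUSG00000001025, chr3:90612882-90624181) were 6.8 kb apart, and S100a11 (ENSMUSG00000027907, chr3:93520488-93526287) and S100a10 (ENSMUSG00000041959, chr3:93555080-93564643) were 28.8 kb apart. Lmna (ENSMUSG00000028063, chr3:88480147-88509956, minus strand) lay 2.09 Mb from S100a4. The other genes were Capg on chromosome 6 (chr6:72544391-72562983), Anxa2 on 9 (chr9:69453620-69491795), Crip1 on 12 (chr12:113146316-113153879), Lgals1 on 15 (chr15:78926725-78930465) and Anxa1 on 19 (chr19:20373428-20390944, minus strand). S100a4 overlapped a second annotated gene on the same strand, Gm42674, and Anxa1 and Anxa2 each overlapped a non-coding gene on the opposite strand, and how reads in such overlaps were counted is not given in the sources used here.

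Promoters are shown because 6 of the genes that differed between the tissues, or that were seen in the same cells, can be compared there for shared letters. The lines give the 150 bases before the RefSeq start site (GRCm38.p6), 5′ to 3′ on the gene's strand. Capitals mark matches, on either strand, to TATAAA (the TATA box), TGANTCA (the AP-1 site), GGGCGG (an Sp1-type GC box) or CCACCC (a KLF-type box), and GGGCGG and CCACCC matches can overlap.
S100a4, chr3:90603620-90603769, plus strand: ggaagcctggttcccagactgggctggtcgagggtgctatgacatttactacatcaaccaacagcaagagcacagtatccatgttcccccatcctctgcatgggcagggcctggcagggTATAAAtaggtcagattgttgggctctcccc
S100a6, chr3:90612744-90612893, plus strand: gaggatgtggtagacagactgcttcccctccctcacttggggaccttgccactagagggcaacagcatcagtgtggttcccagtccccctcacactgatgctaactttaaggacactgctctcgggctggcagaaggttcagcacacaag
Crip1, chr12:113151862-113152011, plus strand: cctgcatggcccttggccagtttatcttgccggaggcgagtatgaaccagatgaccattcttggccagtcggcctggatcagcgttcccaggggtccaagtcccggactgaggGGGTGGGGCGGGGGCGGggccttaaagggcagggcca
Lmna, chr3:88503353-88503502, minus strand: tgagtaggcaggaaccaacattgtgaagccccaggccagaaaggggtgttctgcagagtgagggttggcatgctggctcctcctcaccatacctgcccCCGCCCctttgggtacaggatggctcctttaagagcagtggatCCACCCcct
S100a11, chr3:93520346-93520495, plus strand: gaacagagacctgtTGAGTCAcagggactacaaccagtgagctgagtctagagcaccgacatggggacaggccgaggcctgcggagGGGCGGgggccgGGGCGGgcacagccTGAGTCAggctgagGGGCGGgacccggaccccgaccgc
Anxa2, chr9:69453533-69453682, plus strand: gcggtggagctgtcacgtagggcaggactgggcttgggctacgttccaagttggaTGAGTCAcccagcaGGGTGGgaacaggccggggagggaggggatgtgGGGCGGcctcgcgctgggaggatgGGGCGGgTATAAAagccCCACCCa
No set of letters was common to these genes. Of the 10 genes, 8 had a window in the RefSeq table, with 9 windows in all because Lmna had a second start site. In the 250 bases before the start, TATAAA was found in 3 of the 9 windows (S100a4, Anxa1 and Anxa2) and in 12.4% of all 32851 windows of that length. TGANTCA was found in 2 (S100a11 and Anxa2) against 6.75% of all windows, GGGCGG in 4 against 32.7%, and CCACCC in 5 against 28.1%. The neighbours S100a4 and S100a6 did not look alike here, since S100a4 had TATAAA 31 bases before its start and S100a6 had none of the 4 motifs. A match is a run of letters and not a bound site.

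Over all cells, part of the set was higher in the colon. Lmna, S100a6, Lgals1, S100a4 and Crip1 were at least 3-fold higher in the colon, Anxa2, Anxa1 and S100a11 about 2-fold, S100a10 was near level and Capg was lower. Of the 10 genes, 6 were at least 2-fold higher in the colon (the first 5 named here, and Anxa2 at the limit), against 2.11% of the 2985 genes with at least 20 UMIs over both libraries and 50 CPM in the higher one. That share only places the gap, because the genes were chosen on it. None of the 10 was at least 2-fold lower, against 5.56% of genes. The median log2 ratio was 1.29 over the 10 genes and -0.18 over all 2985, so relative to the median gene each ratio is slightly larger.

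**Figure D1:**
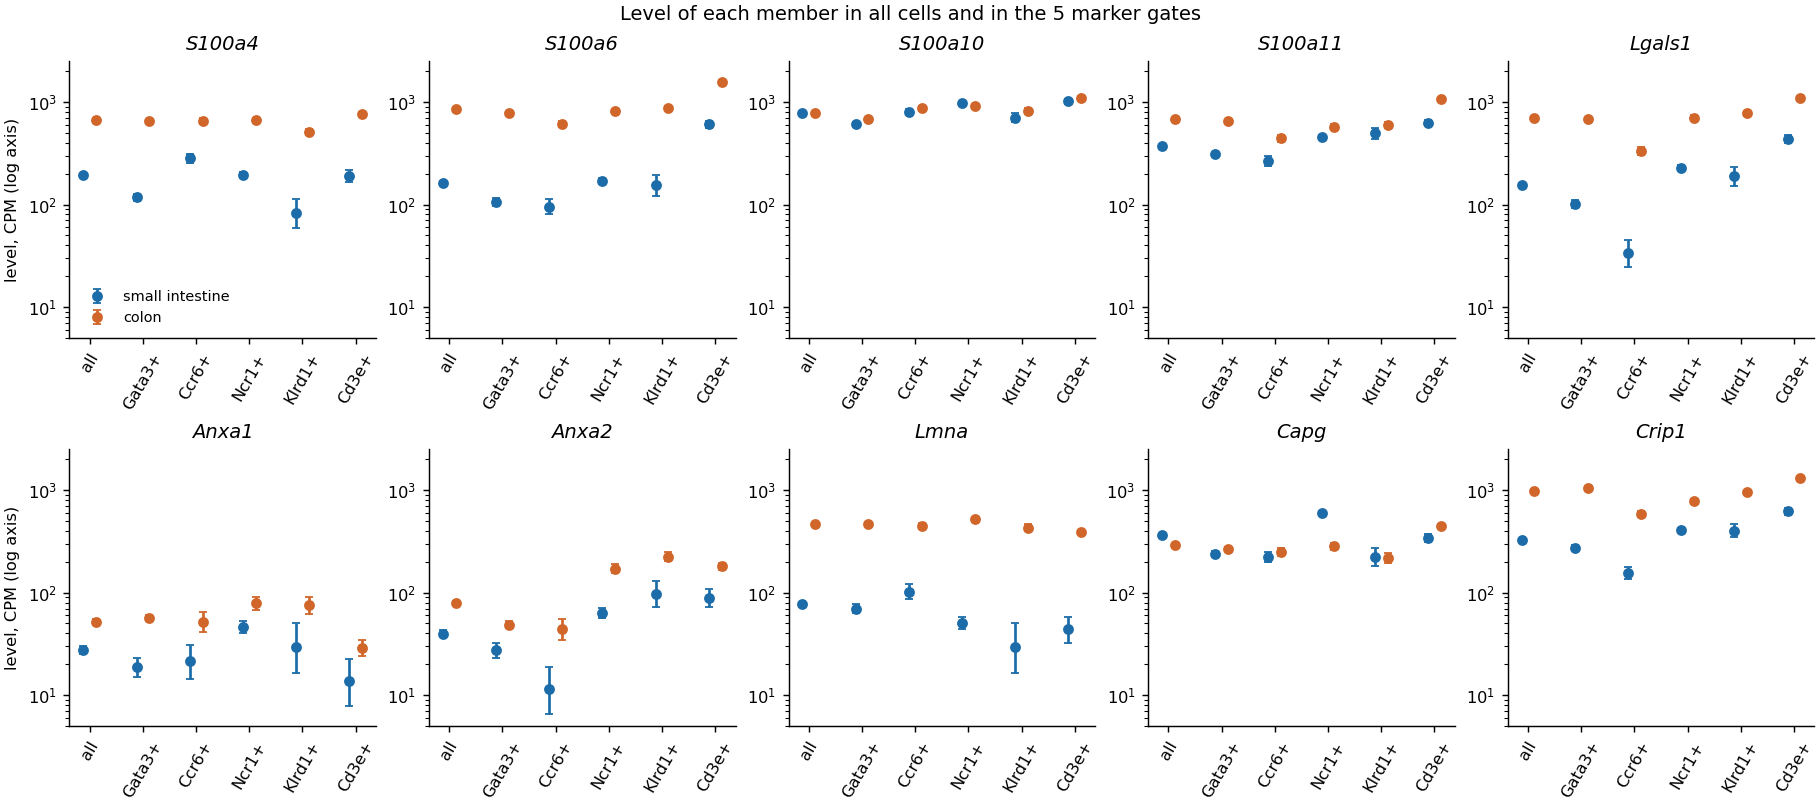
Level of each of the 10 genes, in CPM on a log axis, 1 panel per gene, over all cells and within each marker-positive set of cells (x axis), with small intestine in blue and colon in orange; each point is 1 library and its bar the exact Poisson interval. Lmna, S100a6, Lgals1 and S100a4 were higher in the colon at every position of their panels, while S100a10 points lie almost on each other.

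Among the S100 genes, S100a6, a calcium sensor abundant in dividing and migrating cells, stood at 162 CPM in small intestine cells and at 851 CPM in colon cells (5.25-fold, interval 5.03 to 5.48). S100a4, which binds non-muscle myosin, stood at 192 and 661 CPM (3.44-fold, 3.30 to 3.58). S100a11 stood at 370 and 686 CPM (1.85-fold, 1.80 to 1.91). S100a10 was the exception, with 781 and 776 CPM (0.99-fold, 0.97 to 1.02). With each library scaled to its median gene its log2 ratio was 0.17, so its direction depends on the scaling. The gap thus ran from none to over 5-fold within 1 gene family, and it differed between the close neighbours S100a10 and S100a11.

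Lmna had the highest ratio of the set, 76.6 CPM for small intestine against 464 CPM for colon cells (6.06-fold, 5.70 to 6.44). Lgals1 stood at 156 and 689 CPM (4.43-fold, 4.24 to 4.63), and Crip1 at 327 and 982 CPM (3.004-fold, 2.91 to 3.10). The annexins were the scarcest members. Anxa1, which binds formyl peptide receptors when secreted, stood at 27.7 and 52.1 CPM (1.88-fold, 1.68 to 2.11), and Anxa2 at 39.7 and 79.4 CPM (2.001-fold, 1.82 to 2.20). Capg stood at 362 against 294 CPM (0.81-fold, 0.78 to 0.84), the only gene whose interval lay below 1.

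For S100a6, Crip1 and Lmna, the share of cells in which the gene was seen and the UMIs per such cell were both higher in the colon. In sparse counts a higher level raises both, so they are not independent of each other. With every cell thinned to 1000 UMIs, which left out no cell, S100a6 was seen in 10.5% of small intestine cells against 41.5% of colon cells (19.8% and 62.2% before thinning), and at 1.47 and 2.11 UMIs per cell in which it was seen. Crip1 was seen in 24.0% and 43.5% of cells (47.8% and 68.8% before thinning), at 1.29 and 2.29 UMIs. Lmna was seen in 6.74% and 27.8% (15.1% and 50.2% before thinning), at 1.19 and 1.74 UMIs. S100a10 was seen in 49.98% and 49.3% (77.1% and 78.3%), at 1.57 and 1.62 UMIs. The gap of Lmna and S100a6 was thus in the share of cells as well as in the summed level, and S100a10 was close to level in both measures.

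Free RNA was also higher in the colon for the genes with a gap. Since ILCs and T cells can express these genes, no cell type here gives a background share. In barcodes with 10 to 50 UMIs, Lgals1 stood at 99.0 CPM (small intestine) and 614 CPM (colon), S100a6 at 135 and 770 CPM, and Lmna at 145 and 564 CPM. S100a10 stood at 954 and 1011 CPM there, and Capg, which was lower in colon cells, at 264 and 283 CPM. With the estimated free RNA subtracted, 5 of the 10 genes were at least 2-fold higher in the colon over all cells, against 6 without subtraction. With each library scaled to its median gene there were 8, as S100a11 and Anxa1 passed the limit.

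The next comparison asked whether the gap was also found among cells alike in a marker, since the tissues differed in their mix of cells. Cells were taken with at least 1 UMI of Gata3 (a transcription factor of ILC2), Ccr6 (a chemokine receptor of lymphoid tissue inducer cells), Ncr1 (the receptor NKp46 of ILC1, NK cells and some ILC3), Klrd1 (the receptor CD94 of NK cells) or Cd3e. These sets overlap, and a UMI of free RNA can place a cell in a set. The tissues differed in how many cells each set took. Gata3 was seen in 29.9% of cells (1643) of the small intestine and 55.9% (4218) of the colon, or 15.8% and 33.5% after thinning. Ncr1 was seen in 29.2% (1605 cells) and 8.81% (665 cells), Ccr6 in 9.85% (541 cells) and 4.73% (357 cells), Klrd1 in 3.13% (172 cells) and 6.38% (482 cells), and Cd3e in 429 and 1384 cells. After thinning, those 4 shares were 15.3% and 4.77%, 4.97% and 1.58%, 1.82% and 3.78%, and 4.92% and 10.7%.

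The gap was found in all 5 sets of cells. At least 2-fold higher in the colon were 7 of the 9 genes that passed the filter in Gata3-positive cells (1.57% of all genes tested there), 6 of 9 in Ccr6-positive cells (1.92%), 5 of 10 in Ncr1-positive cells (3.18%), 7 of 10 in Klrd1-positive cells (2.17%) and 6 of 9 in Cd3e-positive cells (1.52%). The genes below the filter were Anxa2 in the Gata3 and Ccr6 sets and Anxa1 in the Cd3e set. All 10 genes were counted without the filter too, which gave 7, 7, 5, 7 and 7. The median log2 ratio of the 10 genes was 1.76, 1.60, 1.19, 1.30 and 1.08 in that order, and that of all genes tested was between -0.16 and -0.14. At least 2-fold lower in the colon were 0 of the 10 in Gata3-positive (4.58% of all genes), Ccr6-positive (4.1%), Klrd1-positive (4.76%) and Cd3e-positive cells (2.7%), and 1 in Ncr1-positive cells (5.17%). These sets hold the cells on which the genes were chosen, so the counts describe where the gap lies and are no independent support for it.

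**Figure D2:**
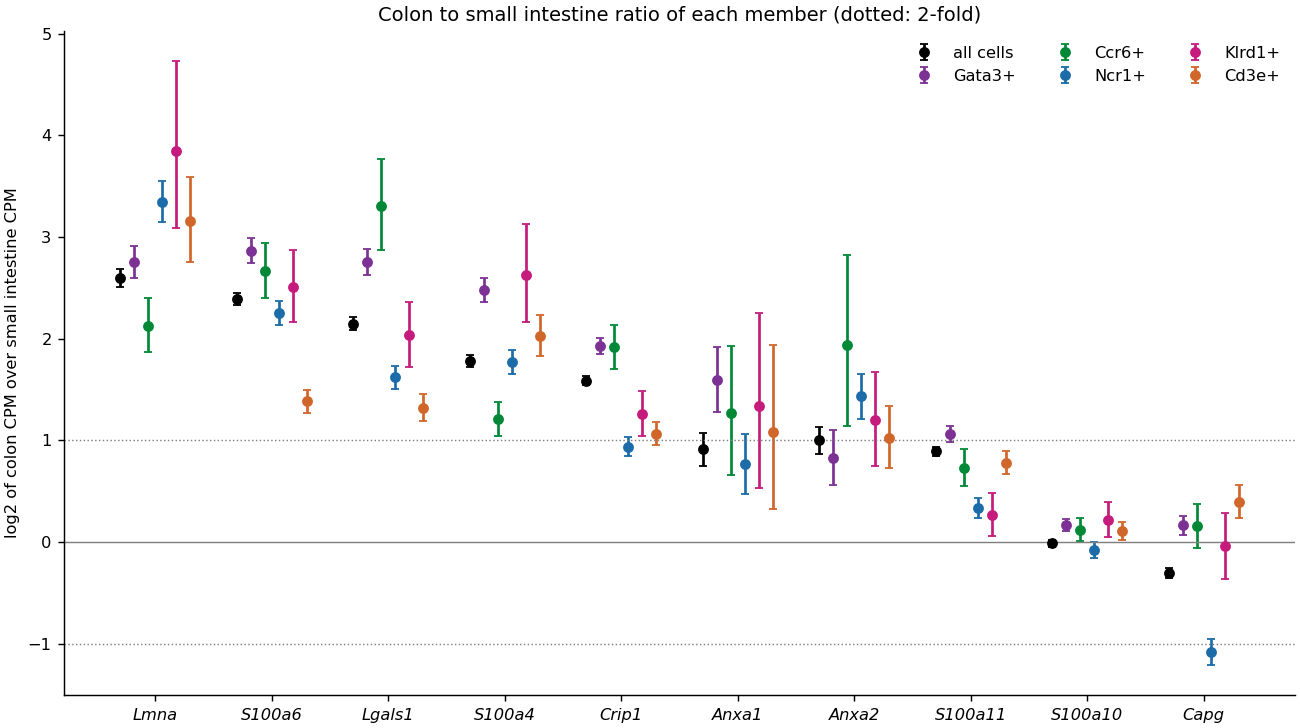
Ratio of colon to small intestine for each of the 10 genes, on a log2 axis, in all cells and in the 5 marker-positive sets; points are ratios of summed UMIs and bars exact binomial intervals. Lmna lay between 2.13 and 3.85 on the log2 scale in the 5 sets, S100a10 stayed within 0.22 of 0, and Capg reached -1.08 in Ncr1-positive cells.

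Lmna, S100a6, Lgals1 and S100a4 were at least 2-fold higher in the colon in each of the 5 sets. Lmna stood in the colon at 470 CPM in Gata3-positive, 446 in Ccr6-positive, 516 in Ncr1-positive, 429 in Klrd1-positive and 391 in Cd3e-positive cells. The same sets of small intestine cells had 69.7, 102, 50.8, 29.8 and 43.8 CPM. Its level was thus nearly flat over the colon sets and varied over those of the small intestine, and its ratio ran from 4.38-fold in Ccr6-positive to 14.4-fold in Klrd1-positive cells (interval 8.52 to 26.5).

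The level of S100a6 varied with the set in both tissues. Its small intestine levels were 107 CPM in Gata3-positive, 95.5 in Ccr6-positive, 171 in Ncr1-positive, 153 in Klrd1-positive and 606 in Cd3e-positive cells. Its colon levels were 776, 607, 816, 871 and 1581 CPM. The ratio was highest in Gata3-positive cells (7.29-fold) and lowest in Cd3e-positive cells (2.61-fold), where the small intestine level was already high.

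Lgals1 was scarcest in the Ccr6-positive cells of both tissues, at 33.8 and 333 CPM (9.87-fold, 7.32 to 13.6). Its levels in Gata3-positive cells were 101 and 685 CPM (6.76-fold), in Ncr1-positive cells 229 and 704 CPM (3.08-fold), in Klrd1-positive cells 189 and 777 CPM (4.10-fold) and in Cd3e-positive cells 435 and 1089 CPM (interval of the ratio 2.28 to 2.75). The Ccr6 value depends on which cells are taken: colon Ccr6-positive cells also had Gata3 in 34.7% and Cd3e in 13.4%, against 21.8% and 1.85% in the small intestine. In cells with Ccr6 and none of the other 4 markers (377 and 178 cells), the log2 ratio of Lgals1 was 1.503 in place of 3.30, and that of S100a6 was 1.75 in place of 2.67.

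S100a4 stood at 118 and 655 CPM in Gata3-positive cells (5.57-fold), 282 and 653 in Ccr6-positive (2.31-fold), 195 and 668 in Ncr1-positive (3.42-fold), 83.0 and 513 in Klrd1-positive (6.18-fold) and 189 and 770 in Cd3e-positive cells (4.08-fold). Klrd1-positive cells had the lowest level in both tissues. In cells with Klrd1 and no other of the 5 markers, only 31 and 120 cells, the log2 ratio was 1.21 for S100a4 and 1.14 for S100a6, against 2.63 and 2.51.

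Crip1 was at least 2-fold higher in 4 of the 5 sets, of which the Ccr6 set depended on the cells taken. Small intestine and colon levels were 273 and 1042 CPM in Gata3-positive cells (3.81-fold), 155 and 587 in Ccr6-positive (3.78-fold), 400 and 960 in Klrd1-positive (2.40-fold) and 620 and 1300 in Cd3e-positive cells (2.10-fold). Ncr1-positive cells had 404 and 774 CPM (1.91-fold), just under the limit. In Ccr6-positive cells the log2 ratio of Crip1 was 1.92, but 0.99 in cells with none of the other 4 markers or in cells of 2000 to 4000 UMIs, where it was no longer at least 2-fold higher. S100a11 reached it in Gata3-positive cells alone, at 310 and 649 CPM (2.09-fold), and its other ratios ran from 1.20-fold in Klrd1-positive to 1.72-fold in Cd3e-positive cells. S100a11 was highest in Cd3e-positive cells of both tissues, at 624 and 1072 CPM.

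The annexins did not follow 1 order. Anxa2 was highest in the colon in Klrd1-positive (225 CPM), Cd3e-positive (180 CPM) and Ncr1-positive cells (170 CPM), and stood at 48.7 CPM in Gata3-positive and 44.1 CPM in Ccr6-positive cells. Its small intestine levels in those 5 sets were 97.9, 88.5, 63.0, 27.4 and 11.5 CPM. Anxa1 had its lowest colon level in Cd3e-positive cells (29.2 CPM), the cells in which most of the other members were highest, and its highest in Ncr1-positive cells (78.5 CPM). The ratio of Anxa1 was highest in Gata3-positive cells, at 18.8 and 56.5 CPM (3.02-fold).

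S100a10 and Capg were not 2-fold higher in the colon in any of these sets. In Gata3-positive and Cd3e-positive cells the intervals of both genes nevertheless lay above 1. S100a10 lay between 0.95-fold and 1.17-fold in all 5 (in Ncr1-positive cells, 0.08 on the log2 scale with median-gene scaling), with 970 and 920 CPM in Ncr1-positive cells and 611 and 686 CPM in Gata3-positive cells. Its partner Anxa2 passed the filter in 3 of the sets, where it was 2.04-fold to 2.70-fold higher in the colon. In cells with Klrd1 and no other of the 5 markers, however, the log2 ratio of Anxa2 was 0.23 in place of 1.20. Capg was 598 against 283 CPM in Ncr1-positive cells (2.11-fold higher in the small intestine, interval 1.94 to 2.31). It was the 1 case of a gene of the 10 at least 2-fold lower in the colon, and with median-gene scaling its log2 ratio was -0.92, inside the limit. It stood at 238 and 267 CPM in Gata3-positive (1.12-fold), 223 and 249 in Ccr6-positive (1.12-fold), 224 and 217 in Klrd1-positive (0.97-fold) and 341 and 449 in Cd3e-positive cells (1.32-fold).

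The sets were not alike in content. Among Gata3-positive cells, Il22, a cytokine of ILC3, was seen in 69.3% (small intestine) and 33.3% (colon). Over all cells it was seen in 76.1% and 38.0%, so the Gata3 shares were not far from those of each whole library. The part of free RNA in these Il22 shares was not tested. Of the ILC2 markers in Gata3-positive cells, Il1rl1, the interleukin-33 receptor, was seen in 5.66% and 27.2%. Hs3st1 was seen there in 46.9% and 59.7%, and Klrg1 in 40.2% and 65.9%. In Ncr1-positive cells Klrd1 was seen in 5.61% and 32.6%. The median Ccr6-positive cell had 2366 UMIs in the small intestine library against 3443 in that of the colon, and the other sets were within a narrower range of depth. Hspa1a, a heat shock gene induced by handling, stood at 105 and 530 CPM in Ccr6-positive and 155 and 378 CPM in Ncr1-positive cells. In the other sets it was closer, at 151 and 194 CPM in Gata3-positive, 138 and 188 CPM in Klrd1-positive and 234 and 214 CPM in Cd3e-positive cells. Leaving out cells with Hspa1a or Hspa1b (349 small intestine and 944 colon cells) left the counts of genes at least 2-fold higher at 6 over all cells and 7, 6, 5, 7 and 6 in the 5 sets, the same as with them. An effect of handling on a whole library was not tested and cannot be told apart from one of tissue.

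A narrower set of Gata3-positive cells, chosen after seeing the data, also had at least 3 UMIs of the other ILC2 markers (779 small intestine and 2934 colon cells). Of 9 genes that passed the filter there, 8 were at least 2-fold higher in the colon, against 1.83% of all genes tested, and the median log2 ratio of the 10 genes was 2.66. Lgals1 was 17.0-fold higher, S100a6 14.4-fold, S100a4 11.02-fold and Lmna 7.52-fold. Capg stood at 78.7 against 250 CPM (3.18-fold), and S100a10 was 1.82-fold higher. No gene of the 10 was at least 2-fold lower there (1.8% of all genes). Capg thus had opposite directions in ILC2-marked and Ncr1-positive cells, and its ratio over all cells lay between them.

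Per-cell coordination was read from thinned cells as Pearson's r of ln(1 + UMIs) over the 45 pairs of the 10 genes. The points are cells of 1 library with the same number of UMIs, so r is a description and no p is given. In the colon the median r was 0.12 (range -0.01 to 0.39), and 31 of the 45 pairs had an r of at least 0.1, against 0.8% of the 680361 pairs of genes seen in at least 10% of cells. Small intestine cells had a median of 0.055 (range -0.05 to 0.20), with 15 pairs at 0.1 or more against 0.535% of 933661 pairs. Members seen in under 10% of cells are among the 45 pairs but could not be in those backgrounds. With the same limit on members, 25 of 28 pairs in the colon (without Anxa1 and Anxa2) and 14 of 21 in the small intestine (without those and Lmna) had an r of at least 0.1. These are weak correlations in sparse counts, and most members were also seen in fewer small intestine cells, so the difference in r between the tissues cannot be told apart from that in level.

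**Figure D3:**
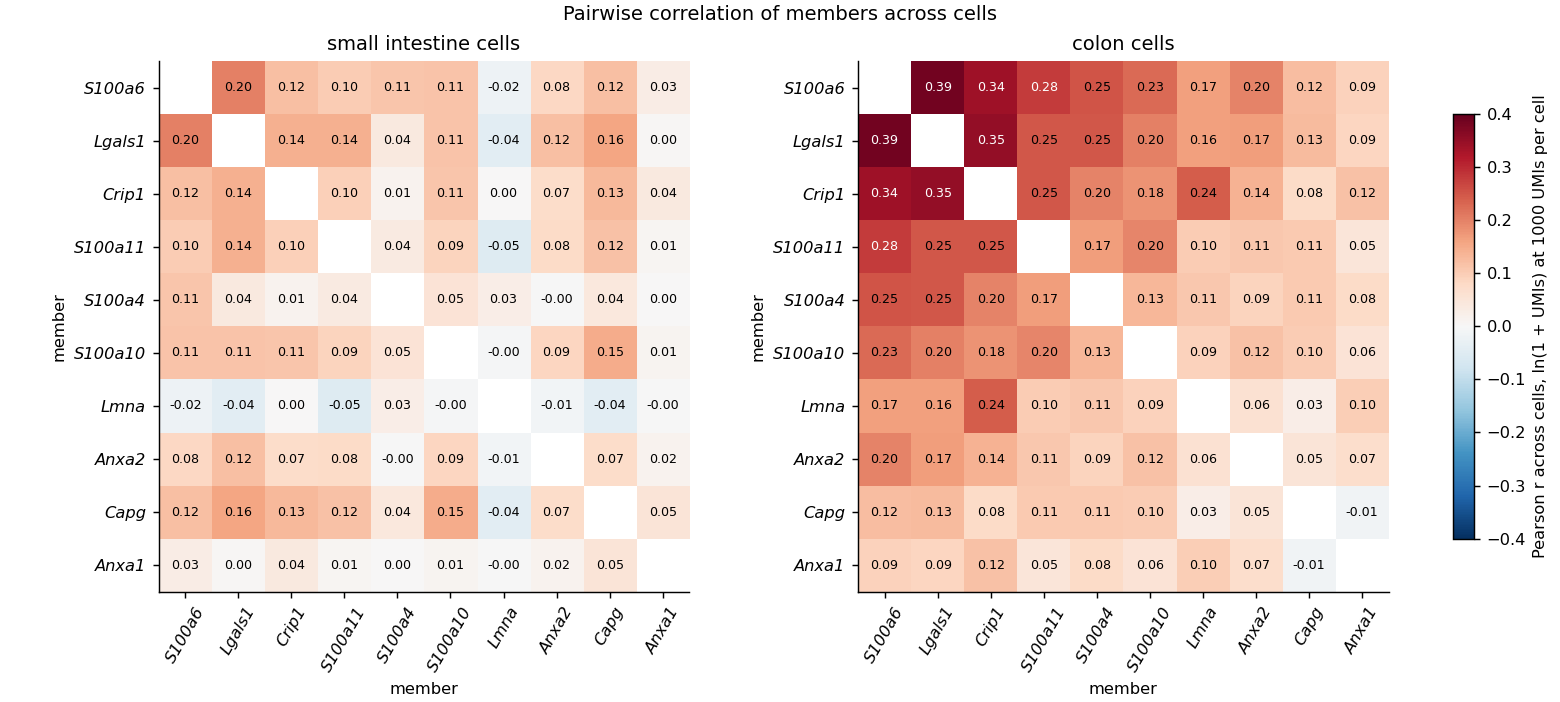
Pearson's r of ln(1 + UMIs) for each pair of the 10 genes over cells thinned to 1000 UMIs, in the small intestine (left) and the colon (right). S100a6, Lgals1 and Crip1 form the darkest block in the colon, with r from 0.34 to 0.39.

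S100a6, Lgals1 and Crip1 were the centre of the colon pattern. S100a6 and Lgals1 had an r of 0.39, Lgals1 and Crip1 0.35, and S100a6 and Crip1 0.34, against 0.20, 0.14 and 0.12 in the small intestine. S100a6 with S100a11 followed at 0.28 (0.10 in the small intestine) and S100a4 with its neighbour S100a6 at 0.25 (0.11). Put as shares, S100a6 was seen in 58.2% of the 2898 colon cells with Lgals1 (interval 56.4 to 60.02%) and in 31.03% of the 4651 without. For small intestine cells it was seen in 26.0% of 581 cells with Lgals1 (22.5 to 29.8%) and 8.68% of 4909 without. Over all cells of both tissues, then, S100a6 was seen more often in cells with Lgals1 than in cells without. Within small intestine Ccr6-positive cells the shares were 9.09% with Lgals1 and 6.79% without, and within Klrd1-positive cells 10.5% and 9.15%. Few cells with Lgals1 were left there, and the intervals overlapped. In the other marker-positive sets of both tissues, the interval for cells with Lgals1 lay wholly above that for cells without.

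Lmna, the gene with the highest tissue ratio over all cells, was less tied to the rest than 6 of the other members were in the colon, and than any of them in the small intestine. Its r with the summed UMIs of the other 9 genes was 0.22 (colon) and -0.04 (small intestine), where S100a6 had 0.45 and 0.21, and Lgals1 0.44 and 0.23. S100a6 was seen in 50% of colon cells with Lmna and 38.2% of those without, and in 9.19% and 10.6% in the small intestine. Its strongest colon pair was with Crip1, at 0.24 over all cells (rank 9 of 45) and 0.29 in Gata3-positive and 0.27 in Cd3e-positive cells (rank 4 in each), against 0.0018 over small intestine cells. Anxa2 (0.20), Capg and Anxa1 (0.13) had lower colon values than Lmna with the rest. Capg had the highest value in the small intestine (0.23) and a lower one in the colon (0.16). The partner pairs were not among the highest: S100a10 with Anxa2 ranked 18 of 45 for small intestine cells (0.09) and 24 for colon cells (0.12), and S100a11 with Anxa1 ranked 34 (0.01) and 43 (0.05). Both annexins were seen in few cells, which limits r. Anxa2 was seen in 4.74% of small intestine cells with S100a10 and 2.29% without, and in 9.91% and 5.41% in the colon. Anxa1 was seen in 3.20% of small intestine cells with S100a11 and 2.90% without, and in 5.49% and 3.84% in the colon.

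The correlation was then computed within each set, where it was as high as over all cells in 2 colon sets and lower in 3. Within colon Gata3-positive cells the median r was 0.14, with 31 of 45 pairs at 0.1 or more, and within Cd3e-positive cells 0.12, with 28 pairs. It was lower in Ncr1-positive (0.07, 14 pairs), Klrd1-positive (0.08, 15 pairs) and Ccr6-positive cells (0.05, 11 pairs). Without cells that had a UMI of Cd3e or Trdc, the colon median stayed at 0.12, with 29 pairs. The small intestine medians in the 5 sets were 0.02 to 0.08, and no pair reached 0.1 in Ncr1-positive cells.

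Summed over the 10 genes, the median thinned cell had 2 UMIs in the small intestine library (quartiles 1 and 3, highest 18) and 4 in the colon (quartiles 2 and 7, highest 60). The distributions overlapped, and 24.9% of small intestine cells reached the colon median. In Gata3-positive cells the medians were 1 and 4, and in Cd3e-positive cells 3 and 7. No UMI of any of the 10 genes was seen in 18.4% and 6.09% of cells. At least 5 of the 10 genes were seen in 4.01% and 26.2% of cells. That share was 12.4% and 47.8% in Cd3e-positive, 2.62% and 23.5% in Gata3-positive, 5.23% and 28.6% in Ncr1-positive, 1.74% and 28.8% in Klrd1-positive and 0.739% and 12.6% in Ccr6-positive cells.

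**Figure D4:**
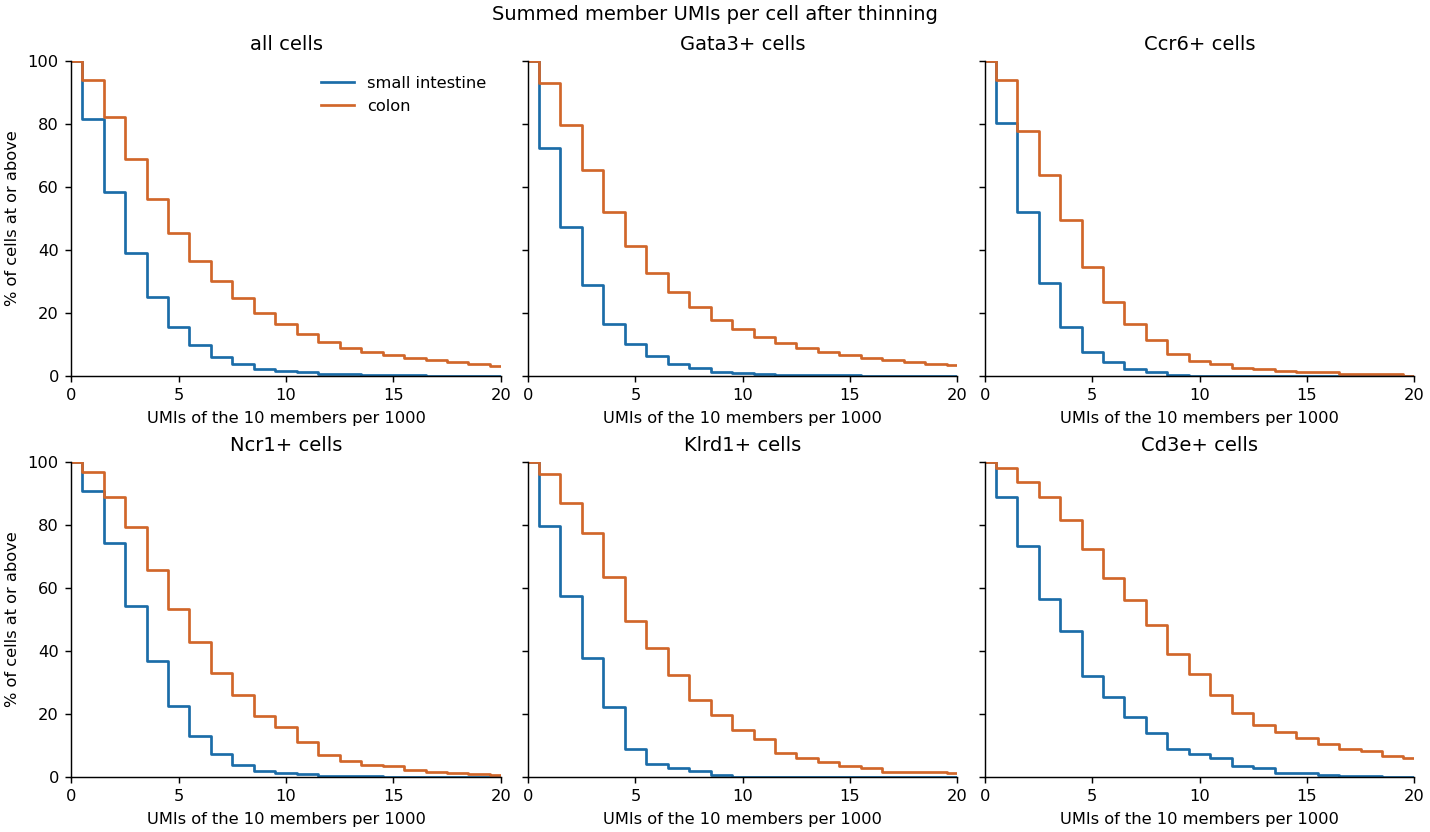
Share of cells, in percent, at or above each value of the summed UMIs of the 10 genes per 1000 UMIs of the cell (x axis, drawn to 20), in all cells and in the 5 marker-positive sets, 1 line per tissue. The colon line lies to the right in every panel, with medians of 4 and 2 over all cells.

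Relatives of the 10 genes were read from lists of their families, beside the 2.11% of all genes at least 2-fold higher and the 5.56% at least 2-fold lower in the colon, shares at which lists this short would hold few or no such genes. Of 12 other S100 genes listed, 9 were in the table and 1 passed the filter, S100a13, at 246 against 226 CPM in the colon. S100a8, a neutrophil calgranulin, had 0 UMIs for small intestine cells and 1 UMI for colon cells. The other calgranulin, S100a9, was absent from the authors' table, so no count of it can be given. Of 10 other annexins, 4 passed and none was at least 2-fold higher or lower, with Anxa6 at 242 and 229 CPM, Anxa5, which binds phosphatidylserine, at 168 and 98.4 CPM, Anxa11 at 115 and 108.5 CPM and Anxa7 at 73.6 and 55.5 CPM. The medians of the genes that passed were -0.13 (log2) for S100 genes and -0.24 for annexins, beside -0.18 for all genes.

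The list nearest to Lmna holds genes of the nuclear lamina and envelope. Of 13 listed, 5 passed the filter and none was at least 2-fold higher or lower over all cells (median log2 ratio -0.26). Emd, which encodes emerin and binds lamins, stood at 255 and 229 CPM, Lbr, the lamin B receptor, at 123 and 103 CPM, Banf1 at 92.8 and 82.3 CPM and Tmpo at 65.6 and 49.3 CPM. Tmpo was 2.23-fold higher in the small intestine in Ccr6-positive cells, and it is named there after its value was seen. Of 7 other galectins 1 passed, Lgals9, at 76.1 and 64.3 CPM. Of 9 gelsolin-family and capping genes 4 passed, none at least 2-fold higher or lower, with Capzb at 407 and 477 CPM (medians -0.24 and -0.23). Of 7 LIM-only and cysteine-rich genes 2 passed, Lmo4 at 1054 and 967 CPM and Csrp1 at 55.6 and 92.5 CPM (1.66-fold), with a median of 0.31. Csrp1, a relative of Crip1, was 2.19-fold higher in the colon in Ncr1-positive and 2.11-fold in Klrd1-positive cells.

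Of 18 cytoskeleton and adhesion genes listed, 17 passed and 3 were at least 2-fold higher in the colon, against 2.11% of all genes, with a median of 0.27. These 3 were Vim, the intermediate filament vimentin, at 127 and 375 CPM (2.95-fold), Emp3 (2.18-fold) and Ahnak, a large scaffold protein that binds S100a10 and Anxa2 (2.07-fold), named after their values were seen. The most abundant genes of the list were close to level, Tmsb4x at 12110 and 14964 CPM and Actb at 6227 and 6387 CPM. In the 5 sets, 1 to 3 of the 16 or 17 genes of this list that passed were at least 2-fold higher, beside 1.52% to 3.18% of all genes, and none was 2-fold lower, beside 2.7% to 5.17%. The count of 1 of 17 in Ncr1-positive cells is near the share of all genes there.

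The genes most like the set from cell to cell were taken as those whose r with ln(1 + summed UMIs of the 10 genes) was highest among genes seen in at least 10% of thinned cells. In the colon, of 1159 genes, they were Tmsb4x (thymosin beta 4, which binds actin monomers, 0.33), Vim (0.31), Trdc (a T cell receptor delta constant gene, 0.29), Ccr2 (a chemokine receptor, 0.28), Actg1 (0.26), Ahnak (0.23), Cd52 (0.22), Cd3e (0.21), Bcl2a1b (0.21) and Tagln2 (0.20). The same genes had, over small intestine cells, 0.34, 0.15, 0.16, 0.14, 0.08, 0.10, 0.23, 0.12, 0.18 and 0.11. The small intestine list, of 1360 genes, shared 2 of 10 with it, Tmsb4x and Cd52. Its other genes were Tmsb10 (0.33), Pfn1 (0.25), Ucp2 (0.21), AC163354.1 (0.21), Thy1, Ctsw, Ifngr1 and Bcl2a1d (0.20 each). Bcl2a1b and Bcl2a1d are near-identical copies, so their counts are uncertain.

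**Figure D5:**
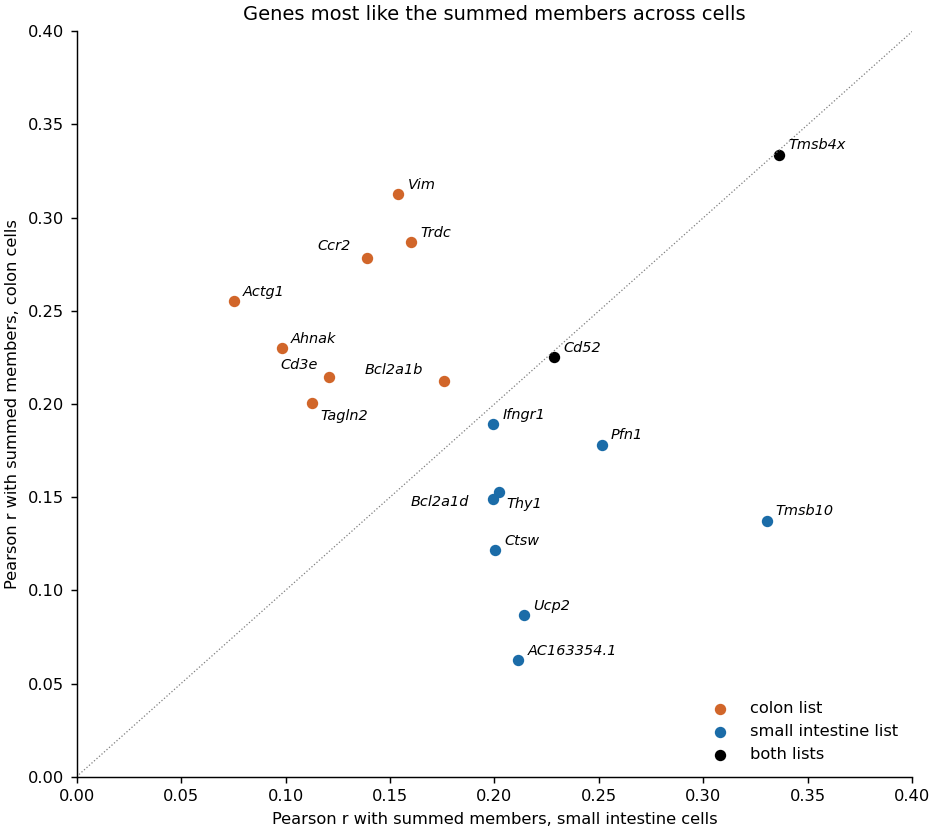
Pearson's r with ln(1 + summed UMIs of the 10 genes) in small intestine (x axis) and colon cells (y axis), 1 point per gene of the 10 highest in either tissue; the dotted line marks equal values. Tmsb4x is high in both, at 0.34 and 0.33, and Vim, Trdc and Ccr2 are higher in the colon.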

How the data were processed

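Per the labels' protocols, libraries were made with a 10x Genomics 3′ kit. The deposited values are raw UMI counts per gene and cell, made with Cell Ranger 3.0.2 on mm10 per the submitters' processing notes. The authors' table of cells was used. How they chose them is not given in the sources used here, and 0 of its values differed from the deposited matrices. UMIs were summed per library and set of cells and scaled to 1000000 (CPM). Intervals were exact Poisson for levels, exact conditional binomial for ratios and Clopper-Pearson for shares, computed with scipy 1.17.1 and numpy 2.4.6. The ratio code was tested on simulated data.

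A gene was counted as higher or lower from a ratio of 2, given 20 or more UMIs in all and 50 or more CPM in the library where it was higher. The free RNA profile came from barcodes of 10 to 50 UMIs, and its share in cells was estimated from antibody genes. Doublets were kept in. Scrublet (scanpy 1.11.5) called 0 and 1 cells automatically, where its setting expected 4.39% and 6.04% of cells. Whether its automatic limit missed doublets was not tested. An alternative left out the 241 and 456 top-scoring cells. The 10 genes and the gene lists were chosen with earlier results of these data known. Named genes were the 10 members, the 5 gate markers, up to 4 genes per list by level and the 10 genes per tissue with the highest r. Alternatives changed the scaling, cells, gates, depth and free RNA.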

Additional observations from a re-analysis of the deposited data

Results flagged for a closer look

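Capg had opposite directions in different sets of cells. Its log2 ratio of colon to small intestine was 0.17 in Gata3-positive and 0.40 in Cd3e-positive cells, and -1.08 in Ncr1-positive cells. The difference between the sets was not tested, since there was 1 library per tissue. In Ncr1-positive cells the value stayed between -1.22 and -0.92 over the alternatives. In Gata3-positive cells it was positive in all 13 alternatives and highest, at 1.67, in cells that also had ILC2 markers.

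S100a10 was also on both sides of 0, at -0.076 in Ncr1-positive cells and at 0.17 in Gata3-positive, 0.12 in Ccr6-positive, 0.22 in Klrd1-positive and 0.11 in Cd3e-positive cells. This difference was not tested either, and it is small. With each library scaled to its median gene, the Ncr1 value was 0.08.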

How the results depend on the processing

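No paired analysis was possible because there was 1 library per tissue, and for the same reason no replicate could be left out. The number of the 10 genes at least 2-fold higher in the colon ranged over the alternatives from 5 to 8 over all cells, 6 to 8 in Gata3-positive, 4 to 7 in Ccr6-positive, 5 to 6 in Ncr1-positive, 5 to 7 in Klrd1-positive and 4 to 7 in Cd3e-positive cells. The median pairwise r was 0.126 (small intestine) and 0.188 (colon) without thinning, where depth per cell adds to it, and 0.079 in the colon as the median over the 5 marker-positive sets. Of the gene ratios under alternatives, 563 lay within the counting interval of the reported value and 137 outside it. The direction changed only for S100a10, with median-gene scaling (log2 0.17 over all cells, 0.08 in Ncr1-positive cells), and for Capg in Klrd1-positive cells, the smallest set, where it ranged from -1.06 to 0.71.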

Other observations

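S100g, the vitamin D-dependent calcium-binding protein calbindin-D9k of gut epithelium, was too scarce to pass the filter but differed between the libraries by a higher ratio than any of the 10 genes had over all cells. It had 111 UMIs in the small intestine, in 36 cells, and 4 UMIs in the colon, or 7.36 and 0.179 CPM (41.1-fold higher in the small intestine, interval 15.6 to 153). Within the small intestine it stood at 48.1 CPM in Ccr6-positive, 8.29 in Gata3-positive, 3.37 in Ncr1-positive, 2.58 in Cd3e-positive and 0 in Klrd1-positive cells. How many of the 36 cells lay in each set was not counted. The Ccr6 value can therefore come from few cells and does not describe that set as a whole. Free RNA held it at 13.8 CPM (small intestine) and 0.580 CPM (colon). Its part in the values of cells was not tested.

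S100a1, a calcium sensor best known from heart muscle, was below the filter over all cells. There it was 1.59-fold higher in the small intestine, at 34.1 and 21.5 CPM (interval 1.40 to 1.80), and stood at 65.5 and 41.2 CPM in free RNA. In Ccr6-positive cells, where it passed the filter, it was near level at 52.4 and 49.0 CPM. The ratio of colon to small intestine was 0.93 there (interval 0.67 to 1.30).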
